A study of Mus musculus with 6 samples.

Results

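The interferon-gamma inducible GTPases are proteins of cell-autonomous defence, made by many cell types once they have sensed interferon gamma. They are described here in CD45-enriched cells of the cecum in HBUS mice, a strain with serrated polyps in this part of the gut. The set comprised 10 named genes: the guanylate-binding proteins Gbp2b, Gbp2, Gbp3, Gbp6 and Gbp7, and the immunity-related GTPases Igtp, Irgm1, Irgm2, Iigp1 and Ifi47. Members were taken as the array probes carrying one of these gene symbols, and a probe was kept where its detection p-value was under 0.05 on at least 3 of the 6 arrays. Of the 10 genes, 9 had a probe, 16 probes in all, and 8 genes with 12 probes were kept, out of 9246 genes and 13409 probes kept on the whole array. The family was selected on its log2 difference between polyp and surrounding cecum, known from an earlier analysis of these same arrays. That difference is therefore given as a description and carries no test.

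The SP group held 3 serrated polyps and the Surrounding group held 3 pieces of the normal distal cecum next to them, one of each from mice 1, 2 and 3. All 6 samples came from HBUS mice, and the labels used here give no alleles, age or sex. In both groups the epithelium was loosened with EDTA, the rest was digested with dispase, and cells with the leukocyte protein CD45 were enriched on magnetic beads. Each sample took 1 array, and all 6 arrays shared 1 Illumina mouse BeadChip, with the pair from a mouse in neighbouring places. The SP array of mouse 3 was the dimmest, with a median signal of 97.3 and 49.3% of probes detected. The other 5 arrays had median signals of 102.3 to 109.3. Differences are SP minus Surrounding within a mouse, on the log2 scale of normalized intensity. A mean difference over n = 3 mice is given ± the SE of limma's fit. That SE draws on the variance of all kept probes, so it can be larger or smaller than a gene's own spread between mice implies. The number of arrays limits the precision of every value.

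Interferon gamma, made mainly by T cells and natural killer cells, binds a receptor of 2 chains and acts through Janus kinases and STAT factors on short promoter elements. The guanylate-binding proteins are large GTPases that assemble on the vacuoles of intracellular pathogens. The immunity-related GTPases are smaller and fall into effectors that attack such vacuoles, and the regulatory IRGM proteins, Irgm1, Irgm2 and Igtp, which keep the effectors off the cell's own membranes. In mice, proteins of the autophagy conjugation machinery are needed to bring both families to the right membrane.

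The promoters of the kept members are shown because short elements read by interferon-activated factors have been described in this family. A RefSeq promoter table of build GRCm38.p6 held 9 windows for the 8 kept members, each from 250 bases before the annotated start of the gene to 50 bases after it, with 2 windows for Gbp3. The 150 bases before the start are printed 5′ to 3′ for 7 members, and capitals mark matches on either strand to TTCNNNGAA, the pattern of the gamma-activated site, or to the core of the interferon-stimulated response element, which is GAAA, any 2 bases and GAAA again. In the Gbp cluster on the plus strand of chromosome 3 these stretches were chr3:142530186-142530335 for Gbp7, chr3:142559894-142560043 for Gbp3, chr3:142594697-142594846 for Gbp2b and chr3:142620513-142620662 for Gbp2. On chromosome 11 they were chr11:58199406-58199555 for Igtp and chr11:58214827-58214976 for Irgm2, on the plus strand, and chr11:48871421-48871570 for Irgm1, on the minus strand.
Gbp2b: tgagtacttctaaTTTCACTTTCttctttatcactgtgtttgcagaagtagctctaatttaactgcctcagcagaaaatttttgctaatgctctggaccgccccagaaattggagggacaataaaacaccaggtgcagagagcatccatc
Gbp2: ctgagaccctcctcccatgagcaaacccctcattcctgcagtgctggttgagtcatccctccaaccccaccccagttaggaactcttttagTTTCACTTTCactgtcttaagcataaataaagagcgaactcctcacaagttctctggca
Gbp3: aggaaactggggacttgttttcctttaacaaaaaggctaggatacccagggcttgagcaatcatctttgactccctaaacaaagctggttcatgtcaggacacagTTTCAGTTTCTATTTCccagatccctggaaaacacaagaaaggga
Gbp7: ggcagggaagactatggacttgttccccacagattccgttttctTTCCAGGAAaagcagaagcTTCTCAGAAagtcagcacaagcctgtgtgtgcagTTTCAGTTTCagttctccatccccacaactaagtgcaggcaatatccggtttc
Igtp: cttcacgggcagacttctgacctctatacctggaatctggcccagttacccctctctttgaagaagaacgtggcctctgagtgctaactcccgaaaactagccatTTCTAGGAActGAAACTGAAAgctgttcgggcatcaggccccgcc
Irgm2: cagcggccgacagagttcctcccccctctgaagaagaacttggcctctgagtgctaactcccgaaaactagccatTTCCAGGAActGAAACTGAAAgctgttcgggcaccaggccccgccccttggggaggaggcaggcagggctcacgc
Irgm1: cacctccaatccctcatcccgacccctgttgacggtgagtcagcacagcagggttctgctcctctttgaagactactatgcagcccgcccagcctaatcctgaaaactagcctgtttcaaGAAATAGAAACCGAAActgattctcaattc
The response element core was present in 7 of the 9 member windows, and in 3.44% of all 32851 windows of the table. The TTCNNNGAA pattern was present in 3 of the 9 member windows, those of Igtp, Irgm2 and Gbp7, and in 8.30% of all windows. Both occurred together in these 3 member windows and in 0.454% of all windows. In Igtp and in Irgm2 the 2 patterns stood 2 bases apart, whereas 25 bases lay between the nearest pair in Gbp7. Igtp and Irgm2 were also alike around the patterns, with 115 of 119 bases identical without gaps in a stretch picked after the windows were seen, and 184 of 270 over the whole overlap of the windows. In Gbp3 and in Irgm1 the capitals cover 2 overlapping matches of the response element core. The second Gbp3 window and the window of Ifi47 held neither pattern, which says only that these letters are not in those windows.

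**Figure D1:**
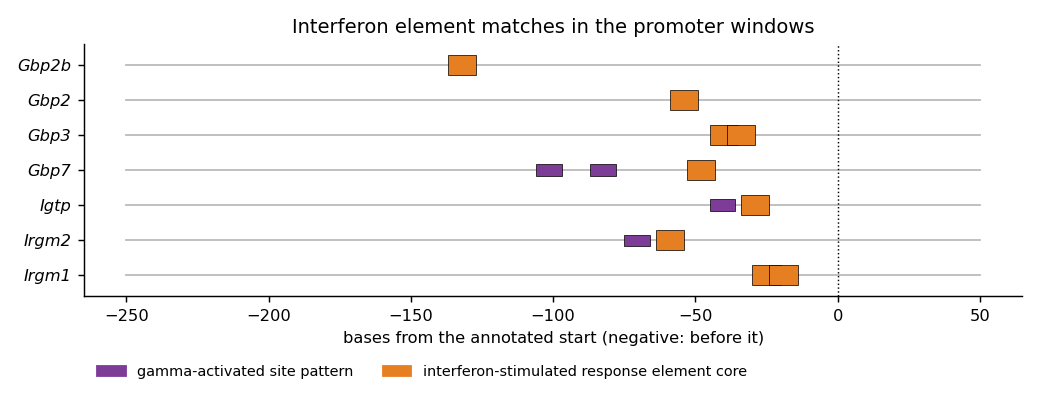
Position of the 2 sequence patterns in the promoter windows of the kept members that held a match. Distance from the annotated gene start in bases is on the horizontal axis, with 1 window per line. The window of Ifi47 and the second Gbp3 window, without a match, are not drawn. The response element core lies within 137 bases before the start in 7 of 9 windows, and the windows of Igtp and Irgm2 share the same pair of patterns.

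All 8 kept members had a lower mean in SP than in Surrounding, as did 12 of 12 kept probes. By the brightest kept probe of each gene, the median difference was -1.06, or 2.09-fold lower in SP, against a median of 0.02 over all 9246 genes. The difference was at least 2-fold in 6 of 8 members, and 2.00% of all genes were at least 2-fold lower. In limma's paired fit 6 of 8 members were past an adjusted p of 0.05 on the lower side, as were 6.46% of all genes, and 0 on the higher side. Of the 12 kept probes 8 were past it on the lower side, as were 5.81% of all kept probes, and 10.4% of all kept probes changed in either direction. The selection of the members used this contrast, so these counts describe them and support nothing further. The 4 guanylate-binding proteins had a median difference of -1.07 and the other 4 genes one of -1.05. In bulk samples of this kind, fewer cells of a type and less RNA per cell cannot be told apart.

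Gbp2b, a guanylate-binding protein also known as Gbp1 in mice, had the largest difference among the kept members. Its log2 intensity was 7.59, 6.37 and 6.73 in the SP samples of mice 1, 2 and 3, against 9.16, 7.96 and 8.28 in their Surrounding samples. The 3 SP values all lay below the 3 Surrounding values, and the mice differed from each other in level but hardly in their difference. By mouse the differences were -1.57, -1.59 and -1.55, with a mean of -1.57 ± 0.09, or 2.97-fold lower in SP.

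Gbp3, another member of the cluster, was the only other kept gene whose groups did not overlap, and 9.53% of all genes had all SP values below all Surrounding values. Its log2 intensity was 8.14, 7.63 and 7.16 in the SP samples of mice 1, 2 and 3, against 9.44, 8.60 and 8.14 in their Surrounding samples. SP of mouse 1 and Surrounding of mouse 3 nearly met. The mean difference was -1.08 ± 0.11, and a second Gbp3 probe gave -1.06 ± 0.18.

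Gbp2, which is recruited to vacuoles of Toxoplasma gondii in mouse cells, had a log2 intensity of 8.77, 8.30 and 7.62 in the SP samples of mice 1, 2 and 3, against 10.41, 9.23 and 8.22 in their Surrounding samples. Surrounding of mouse 1 was far above the other samples, and SP of mice 1 and 2 lay above Surrounding of mouse 3. The differences by mouse were -1.63, -0.93 and -0.60, with a mean of -1.06 ± 0.20. A second, dim Gbp2 probe stood just inside the detection threshold, detected on 2 SP and 2 Surrounding arrays, and gave -0.53 ± 0.20. The remaining Gbp2 probe was detected on 0 arrays and was not kept.

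Gbp7 had one of the smaller differences. Its log2 intensity was 6.18, 6.17 and 5.99 in the SP samples of mice 1, 2 and 3, against 6.94, 6.87 and 6.17 in their Surrounding samples. SP of mice 1 and 2 and Surrounding of mouse 3 were nearly level, so the groups overlapped. The mean difference was -0.54 ± 0.14, or 1.46-fold lower in SP, and a second probe gave -0.55 ± 0.13. The Gbp7 difference was -0.29 in the processed table of the authors, where no background had been taken off.

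Among the regulatory IRGM genes, Igtp, also called Irgm3, spread most between mice. Its log2 intensity was 7.98, 7.26 and 6.52 in the SP samples of mice 1, 2 and 3, against 9.67, 8.42 and 6.87 in their Surrounding samples. The values descended from mouse 1 to mouse 3 in each tissue, and the Surrounding sample of mouse 3 was below the SP samples of mice 1 and 2. The differences by mouse were -1.69, -1.16 and -0.35, with a mean of -1.07 ± 0.24, or 2.1-fold lower in SP.

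Irgm2, the neighbour of Igtp on chromosome 11, followed the same order of mice. Its log2 intensity was 7.64, 7.34 and 6.79 in the SP samples of mice 1, 2 and 3, against 9.23, 8.40 and 7.22 in their Surrounding samples. Here too Surrounding of mouse 3 was below SP of mice 1 and 2. The differences by mouse were -1.59, -1.06 and -0.43, and their mean was -1.03 ± 0.21.

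Irgm1, whose loss in mice disturbs haematopoietic cells and intestinal Paneth cells, had the smallest difference. Its brightest probe had log2 intensities of 11.44, 10.76 and 11.09 in the SP samples of mice 1, 2 and 3, against 11.91, 11.35 and 11.07 in their Surrounding samples. SP was lower in mice 1 and 2, while in mouse 3 the tissues differed by 0.02 in favour of SP. The mean was -0.35 ± 0.14, and -0.22 without mouse 2 and -0.53 without mouse 3. A second Irgm1 probe disagreed in size, with -0.82 ± 0.20 and differences by mouse of -1.34, -0.88 and -0.26, all below 0. The remaining Irgm1 probe was detected on the Surrounding array of mouse 1 alone and was not kept.

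Ifi47, an effector also called Irg47, had a log2 intensity of 7.14, 6.54 and 6.07 in the SP samples of mice 1, 2 and 3, against 8.81, 7.68 and 6.74 in their Surrounding samples. SP was below Surrounding in every mouse, though SP of mouse 1 exceeded Surrounding of mouse 3. The differences by mouse were -1.67, -1.14 and -0.67, with a mean of -1.16 ± 0.19, or 2.24-fold lower in SP.

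Iigp1, an effector of the immunity-related GTPases, could not be measured. Its 2 probes were detected on 0 of 6 arrays, with scanner signals of 89.7 to 100.5 in SP and 91.8 to 101.6 in Surrounding. Gbp6 had no probe under that symbol in the platform annotation and was not analysed here. A probe of one GTPase may also bind transcripts of a near-identical relative, and probe sequences were not used here.

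**Figure D2:**
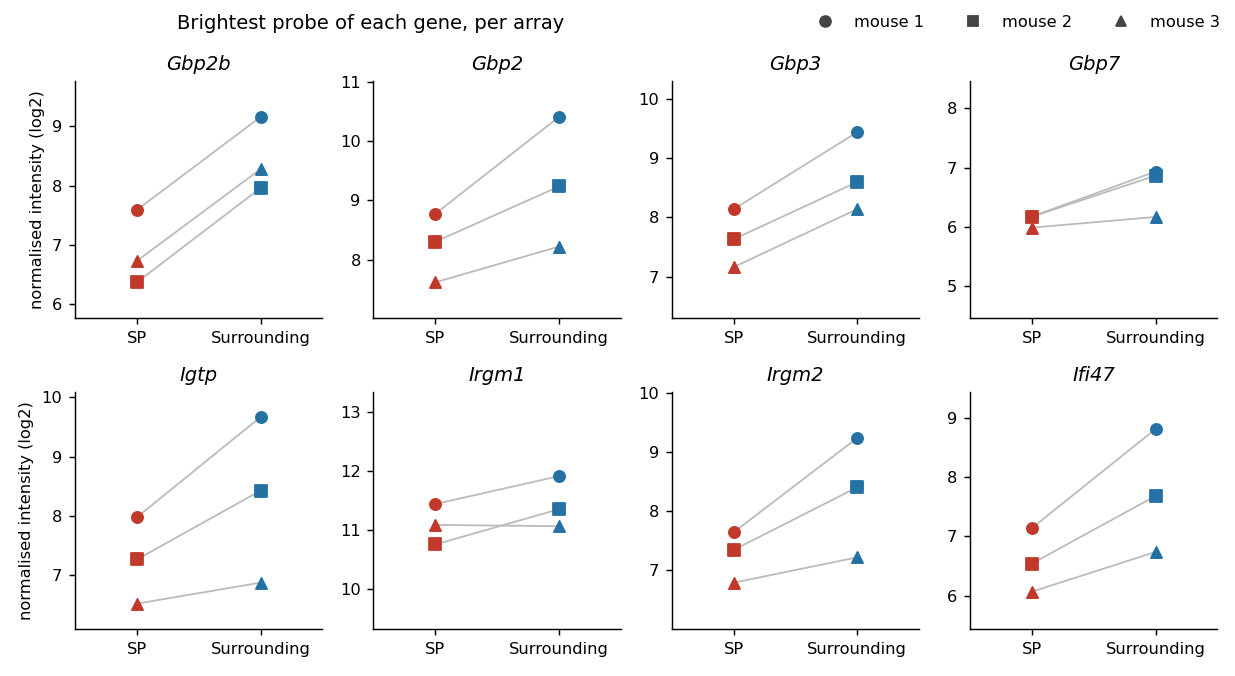
Log2 normalized intensity of the brightest probe of each kept member on every array, SP left of Surrounding, with a line joining the 2 samples of a mouse. Lines run upward from SP to Surrounding in all 3 mice for 7 of 8 genes, and mouse 1 is highest in both tissues for all 8.

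The members shared an order of the mice, a feature of the levels within a tissue that the SP minus Surrounding difference does not set. Mouse 1 was highest in Surrounding for 8 of 8 members, as it was for 28.9% of all genes, and it was also highest in SP for 8 of 8. In Surrounding, mouse 1 exceeded mouse 2 and mouse 2 exceeded mouse 3 in 7 of 8 members, Gbp2b being the exception. The lowest SP sample was that of mouse 3 in 6 of 8. Of these counts, the share over all genes was taken for the first alone. The order was not particular to the members. Mean levels of the T cell list described below also descended from mouse 1 to mouse 3. They were 7.05, 6.51 and 5.95 in SP and 8.64, 8.19 and 7.12 in Surrounding. Those of the type I interferon list descended too, whereas those of the B cell and pan-leukocyte lists were highest in mouse 2. The levels of members also spread more between mice than those of most genes: the median range across the 3 mice was 1.03 in SP and 1.66 in Surrounding, against 0.38 in SP and 0.33 in Surrounding over all genes. Genes measured on the same 6 arrays are not independent of each other, and no test was made of these orders.

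The differences themselves varied by mouse in the same order. The members' median was -1.58 in mouse 1, -1.01 in mouse 2 and -0.52 in mouse 3, while that of all genes was between 0.00 and 0.02 in each mouse. Mouse 1 had the largest difference in 6 members and mouse 2 in the other 2, and mouse 1 had the lowest difference in 38.9% of all genes. Mouse 3 had the smallest in 7 members, a count that was not taken over all genes. Without mouse 1 the members' median was -0.76, without mouse 2 it was -1.07 and without mouse 3 it was -1.30. SP was below Surrounding in all 3 mice for 7 of 8 members, with Irgm1 the exception, and for 24.2% of all genes. The dim SP array belongs to mouse 3, where the differences were smallest, and its part in this order was not tested.

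**Figure D3:**
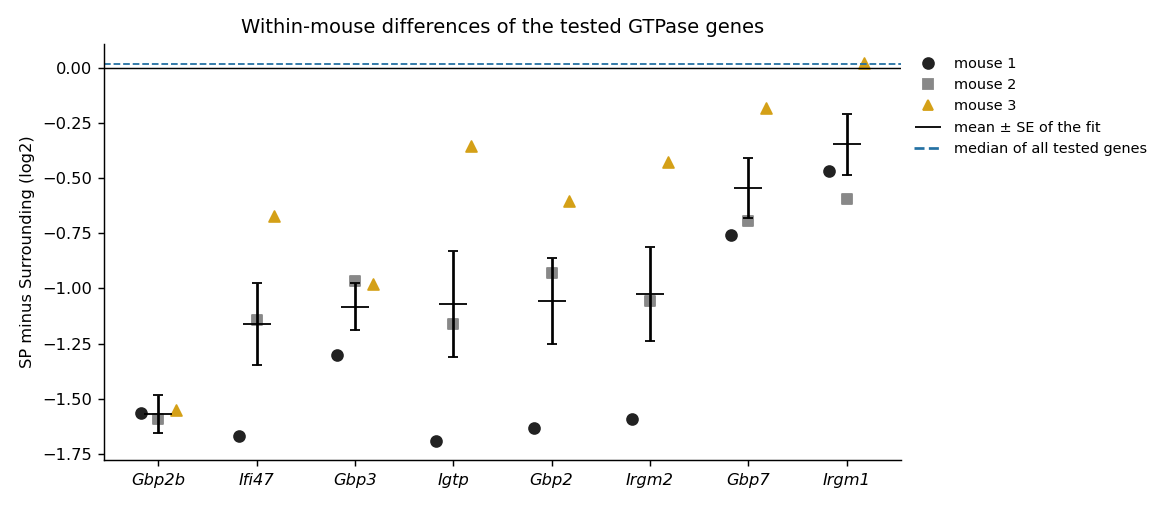
SP minus Surrounding (log2 intensity) of each kept member, 1 point per mouse, with the mean as a short line, its SE from limma's fit as the error bar and the median of all kept genes as the dashed line. The 3 mice coincide for Gbp2b and spread most for Igtp.

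To compare the members' patterns, each profile over the 6 samples was centred and its root mean square distance from the mean profile of the other members was taken, in log2 units. Gbp3 was nearest to the others at 0.137, followed by Irgm2 at 0.194, Ifi47 at 0.199 and Gbp2 at 0.236. Igtp at 0.453, Gbp7 at 0.468, Irgm1 at 0.494 and Gbp2b at 0.549 stood farther off. Among all other named genes, the 5 nearest to the members' mean profile were Cd7, a T cell and natural killer cell surface protein, at 0.0830, Gvin1, a very large interferon-inducible GTPase, at 0.113, Gal3st2, a galactose sulfotransferase, at 0.128, Psmb9, a subunit of the immunoproteasome, at 0.139, and Fyn, a kinase of T cell signalling, at 0.144. Their SP minus Surrounding differences ran from -1.10 for Cd7 to -0.90 for Fyn. Without background correction they were -0.40 for Cd7 and -0.32 for Fyn. Likeness over 6 samples is a description, and the nearest genes were chosen for it.

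The ligand fell in SP, with a mean difference larger than that of any kept member. Ifng, which encodes interferon gamma, had a log2 intensity of 7.28, 5.14 and 4.47 in SP of mice 1, 2 and 3, against 9.57, 9.57 and 6.08 in Surrounding. Its SP values were lower in every mouse, by the most in mouse 2 and not in mouse 1, where most GTPases differed most. The mean difference was -2.78 ± 0.49, with an adjusted p of 0.0232 by limma, and Ifng was detected on 2 of 3 SP arrays. In the authors' processed values the difference was -1.76 with an adjusted p by limma of 0.0576.

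Most measured genes of the interferon gamma signalling list did not pass the test. Of its 11 measured genes of 13, 1 fell, 1 rose and the other 9 stayed short of the threshold, and the median difference was -0.21. Without mouse 1, 3 fell. With arrays scaled to the same median 4 fell and 0 rose, and with cyclic loess 1 fell and 0 rose. The fit after median scaling gave all probes 1 common variance, so a gene's own spread between mice did not count. This holds for every median scaling result below. Ifngr2, the receptor's signalling chain, was the one that rose: its log2 intensity was 9.06, 8.96 and 9.16 in SP of mice 1, 2 and 3, against 8.35, 8.64 and 8.73 in Surrounding. Its groups did not overlap, and the difference was 0.48 ± 0.11 with an adjusted p of 0.0462 by limma, which was 0.129 without mouse 2 and 0.144 without mouse 3. The rise of Ifngr2 lost its call under both other scalings, with an adjusted p by limma of 0.143 with median scaling and 0.0748 with cyclic loess. Ifngr1, the ligand-binding chain, differed by -0.18 ± 0.09 with an adjusted p of 0.282. The kinases Jak1 and Jak2 differed by -0.21 ± 0.16 and -0.14 ± 0.11 and did not pass. Irf1, a transcription factor induced by interferon gamma, had a log2 intensity of 11.80, 10.99 and 10.82 in SP of mice 1, 2 and 3, against 12.19, 11.88 and 11.14 in Surrounding. It was lower in each mouse, with a mean difference of -0.53 ± 0.13, with an adjusted p of 0.0623 by limma and of 0.036 without mouse 1. Irf9 and Stat2, which form a complex in the type I response, differed by -0.68 ± 0.21 and -0.57 ± 0.26 and did not pass. With median scaling, and its 1 common variance, their adjusted p by limma was 0.000369 and 0.00602. Irf8, a myeloid interferon regulatory factor, differed by -0.14 ± 0.09, and the feedback inhibitors Socs1 and Socs3 by 0.08 ± 0.16 and -0.42 ± 0.26, none past the threshold. Without mouse 1 the Socs3 difference was -0.84 with an adjusted p of 0.00296 by limma.

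Among 8 measured genes of 12 that lead cells to make interferon gamma, 4 fell, 0 rose and the median was -0.49. Stat4, which carries the interleukin-12 signal, fell by 1.02 ± 0.09 with an adjusted p of 0.00357. Tbx21, the T-bet factor of interferon gamma producers, fell by 0.96 ± 0.20 with an adjusted p of 0.0393 and was detected on 1 SP array. Il12rb1, a chain of the interleukin-12 receptor, fell by 0.68 ± 0.15 with an adjusted p of 0.0401 and was also detected on 1 SP array. Il18r1, a chain of the interleukin-18 receptor, fell by 0.66 ± 0.16, with an adjusted p just under 0.05. These p-values are limma's, and without mouse 2 the last 3 genes did not pass, at 0.161, 0.186 and 0.212. Without mouse 1, Il18r1 had an adjusted p of 0.0602. Without background correction, as in the authors' processed values, 1 of the 8 genes fell: Stat4 at -0.64, while Tbx21 at -0.33, Il12rb1 at -0.21 and Il18r1 at -0.43 had adjusted p values by limma of 0.0673, 0.0868 and 0.0585. The size of these differences thus depended on the background step.

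Some other genes of the interferon-inducible GTPase families fell as well. Whether interferon induces each listed gene was not tested here. Of 24 listed, 16 had a probe, 8 were measured, 3 of these fell and 0 rose, with a median of -0.62. Gbp5, a guanylate-binding protein linked to inflammasome activity, had a log2 intensity of 5.75, 5.27 and 4.98 in SP of mice 1, 2 and 3, against 6.53, 5.93 and 5.69 in Surrounding, a fall of 0.72 ± 0.09 with an adjusted p of 0.0086. The SP samples of mice 2 and 3 lay below all Surrounding samples, and SP of mouse 1 lay just above Surrounding of mouse 3. Gvin1 fell by 0.90 ± 0.15 with an adjusted p of 0.0206, and 9930111J21Rik2 by 0.72 ± 0.12 with an adjusted p of 0.0182. Without mouse 2 the adjusted p values by limma of these 3 were 0.0534, 0.0841 and 0.0859. Without background correction 2 fell, Gbp5 at -0.29 among them, and 9930111J21Rik2 at -0.24 did not pass, with an adjusted p of 0.0659 by limma. With median scaling 5 of the 8 fell, Mx2 and Mx1 included, at adjusted p values by limma of 0.00344 and 0.0219. The dynamin-like antiviral GTPases Mx2 and Mx1 differed by -0.66 ± 0.16 and -0.57 ± 0.23 and did not pass. Tgtp1, an effector of the immunity-related GTPases, differed by -0.34 ± 0.24, Gbp10 by -0.21 ± 0.16 and Irgq by 0.11 ± 0.10, and none of the 3 passed. The 8 with a probe that was not kept were Gbp4, Gbp8, Gbp9, Gbp11, Gm12185, Gm4841, Gm4951 and Irgc1.

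Targets of interferon gamma that are not GTPases fell in part. Of 22 measured genes of 25, 11 fell and 0 rose, with a median of -0.61, and the number that fell was 3 without mouse 2 and 6 without mouse 3. Cxcl9, a chemokine for activated T cells, had a log2 intensity of 8.53, 8.0 and 6.15 in SP of mice 1, 2 and 3, against 10.41, 9.40 and 6.85 in Surrounding. As with most GTPases, mouse 1 was highest and mouse 3 lowest in each tissue. Cxcl9 fell by 1.33 ± 0.21 with an adjusted p of 0.0179 by limma, and Cxcl10, which shares its receptor, fell by 1.51 ± 0.27 with an adjusted p of 0.023. Ido1, a tryptophan-degrading enzyme, fell by 1.26 ± 0.23 with an adjusted p of 0.0257, and Nlrc5, the activator of MHC class I genes, fell by 1.06 ± 0.17 with an adjusted p of 0.0188. Without mouse 2 the adjusted p was 0.0711 for Cxcl9, 0.0927 for Cxcl10 and 0.0816 for Nlrc5, and without mouse 3 it was 0.0991 for Cxcl10 and 0.0794 for Ido1. Without background correction the differences were -0.94 for Cxcl10, -0.61 for Nlrc5 and -0.81 for Ido1, whose adjusted p was then 0.0623 by limma, and with mouse as a random block the adjusted p was 0.106 for Cxcl9 and 0.0655 for Cxcl10.

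Genes of the type I interferon response, which shares part of its targets with interferon gamma, fell in part too. Of 16 measured genes of 22, 5 fell and 0 rose, with a median of -0.74, and 2 fell without mouse 2. With median scaling 12 of the 16 fell, without background correction 3, and with mouse as a random block 1. The median by mouse was -1.52 in mouse 1, -0.53 in mouse 2 and -0.22 in mouse 3, the same order of mice as in the GTPases. Isg15, a ubiquitin-like modifier, fell by 1.47 ± 0.13 with an adjusted p of 0.00344 by limma, and Rsad2, the antiviral protein viperin, fell by 1.41 ± 0.12 with an adjusted p of 0.00299. Ifit2, which binds foreign RNA, fell by 1.25 ± 0.24 with an adjusted p of 0.0273, and Ifi27l2a by 1.01 ± 0.22 with an adjusted p of 0.0429. Without mouse 2 the adjusted p by limma was 0.115 for Ifit2 and 0.0539 for Ifi27l2a, and without mouse 3 it was 0.121 for Ifi27l2a. In the authors' processed values it was 0.0857 for Ifit2 and 0.0669 for Ifi27l2a, and with mouse as a random block it was 0.0814 for Isg15 and 0.0934 for Rsad2.

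No measured gene for placing the GTPases on membranes passed the test. Of 12 measured genes of 13 for autophagy conjugation and vacuole ubiquitination, 0 fell and 0 rose by limma, with a median of -0.01, and 1 was lower and 3 were higher at an unadjusted p under 0.05. With median scaling 1 of the 12 fell. In 5 other alternatives 1 rose: an offset of 50, detection on all 6 arrays, detection at p under 0.01, another variance prior, and mouse as a random block. Of 6 measured inflammasome and pyroptosis genes of 8, which act on pathogens that the GTPases release, 0 fell and 0 rose by limma, with a median of 0.05, and 1 was higher at an unadjusted p under 0.05. Without mouse 1, 1 of the 6 rose. A p above the threshold does not show that these genes were the same in both tissues. Over the 7 pathway lists, 83 genes were measured, 24 fell and 1 rose. At an unadjusted p under 0.05 by limma there were 39 lower and 6 higher. On the whole array 597 of 9246 genes fell and 462 rose. An unadjusted p under 0.05 by limma, in either direction, was reached by 3726 of all 13409 kept probes. The unadjusted counts of the lists are to be read beside that number.

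**Figure D4:**
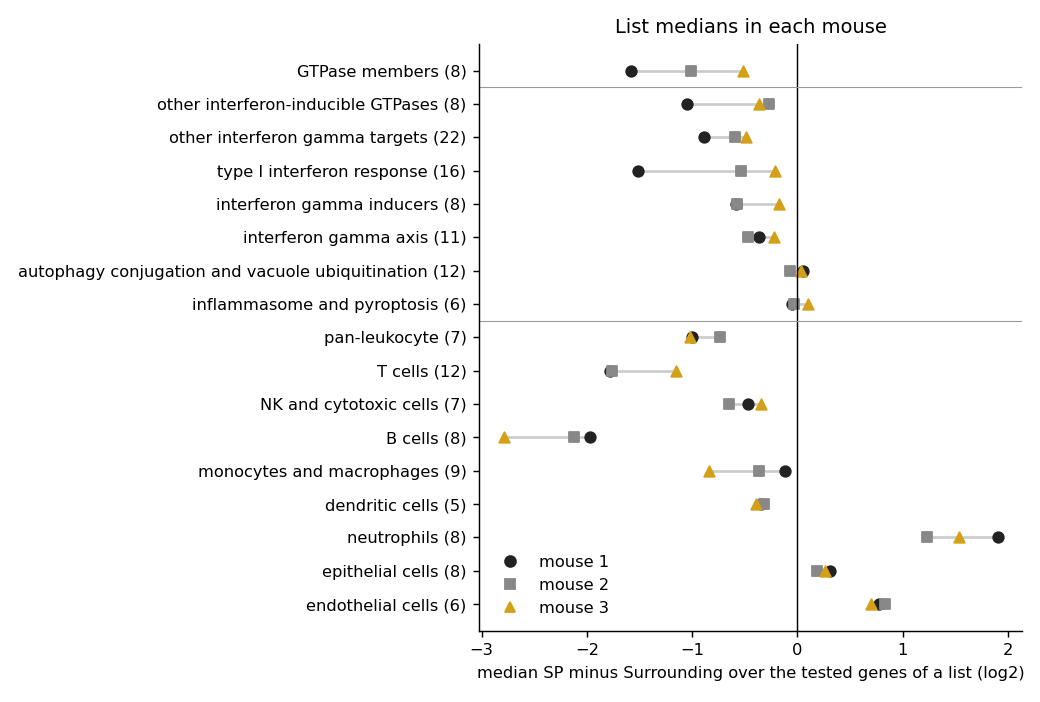
Median SP minus Surrounding difference (log2 intensity) of the members, of each pathway list and of most marker lists, by mouse. The fibroblast, smooth muscle and erythroid lists are not drawn. The members' median is -1.58 in mouse 1, -1.01 in mouse 2 and -0.52 in mouse 3, and the lists of T cells and B cells are lower still, while neutrophil genes are higher in SP.

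Genes of T cells, of natural killer cells and of leukocytes in general were lower in SP to different extents. Of 12 measured T cell genes, 11 fell, with a median of -1.55 and a summed linear intensity of 791 to 1899 in SP, against 2142 to 7266 in Surrounding. Of 7 measured natural killer and cytotoxic genes 4 fell, with a median of -0.47 and sums of 509 to 757 in SP, against 664 to 2242 in Surrounding. The NK genes Ncr1, Gzma and Gzmb and the T cell gene Cd8a were not kept on detection. The T cell median was -1.78, -1.76 and -1.16 in mice 1, 2 and 3. That is the order of mice of the GTPases, with mice 1 and 2 nearly level. The natural killer median was -0.47, -0.65 and -0.35, with mouse 2 lowest. All 7 pan-leukocyte genes fell, with a median of -0.87 and sums of 7881 to 12978 in SP, against 15056 to 20011 in Surrounding, and 4 of the 7 fell without mouse 3. Their median was -1.0, -0.74 and -1.02 in mice 1, 2 and 3, a different order of mice from that of the GTPases. Ptprc, which encodes CD45, had a log2 intensity of 4.91, 5.43 and 4.48 in SP of mice 1, 2 and 3, against 5.95, 6.22 and 5.61 in Surrounding, a fall of 0.99 ± 0.11 with an adjusted p of 0.0052 by limma. Ptprc was detected on 2 of 3 SP arrays, and without background correction its difference was -0.35.

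The other lists moved in both directions, on an array where 597 of 9246 genes fell and 462 rose. Of 8 measured B cell genes 8 fell, with a median of -2.31. Of 9 monocyte and macrophage genes 2 fell, with a median of -0.44, and of 5 dendritic cell genes 2 fell, with a median of -0.37. Neither list had a fallen gene without mouse 2 or without mouse 3, and 5 macrophage genes fell without mouse 1. Of 8 neutrophil genes 6 rose, with a median of 1.41 and sums of 6962 to 8194 in SP, against 1270 to 3380 in Surrounding. Of 6 endothelial genes 6 rose, with a median of 0.79, and 2 rose without mouse 2. Of 8 epithelial genes 2 rose, with a median of 0.25 and sums of 30378 to 32281 in SP, against 26359 to 27112 in Surrounding, and 1 rose without mouse 1 and 0 without mouse 2 or mouse 3. Epithelial transcripts remained in both groups after bead enrichment. Of 5 smooth muscle genes 4 fell, with a median of -1.03, and 0 of 8 fibroblast and 0 of 3 erythroid genes passed limma's test, with 0 and 1 at an unadjusted p under 0.05. Without mouse 1, 1 erythroid gene rose. The part of these cell types in the differences of the GTPases was not tested.

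The number of calls depended on the pairing and on which mice were kept. In a limma fit without the mouse term, 0 of 8 members and 0 of the 24 lower pathway genes were past the threshold. In that fit 16 pathway genes were lower at an unadjusted p under 0.05. Without mouse 2 there were 2 members and 7 pathway genes past the threshold on the lower side. Without mouse 3 there were 7 and 18, and without mouse 1 there were 6 and 28. The whole array changed too. Of 13409 kept probes 779 were lower in the paired fit, against 96 without the mouse term. The number was 259 without mouse 2, 354 without mouse 3 and 1102 without mouse 1.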

How the data were processed

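Per the file headers, the non-normalized table deposited by the authors gives every probe an intensity and a detection p-value on each array. A second deposited table of intensities, processed by the authors, was within 0.005 of those scanner values after quantile normalization with no background correction. GenomeStudio and limma 3.14.4 are named, per the submitters' processing notes, without their roles. Promoter coordinates and sequences come from RefSeq's table for GRCm38.p6.

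Scanner intensities were corrected with limma 3.58.1 (R 4.3.3) by normexp on detection p-values with an offset of 16, then quantile normalized, and log2 was taken. Probes detected at p under 0.05 on at least 3 of 6 arrays were kept, 13409 of 25697, and 12288 were removed. Symbols came from the platform annotation, with 23978 probes named and 1719 unnamed. A gene is represented by its brightest kept probe. The model had mouse and tissue as terms (lmFit, eBayes, 2 residual and 4.04 prior degrees of freedom), with two-sided Benjamini-Hochberg adjusted p-values over all kept probes and a threshold of 0.05. At this threshold 1399 probes (10.4%) changed, 620 higher and 779 lower in SP. With arrays scaled to the same median the split was 407 higher and 1000 lower. In that fit the prior degrees of freedom were infinite, so all probes shared 1 variance.

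The pairing comes from the study's design: samples with the same number are from the same mouse. Deviations from the group means correlated at 0.571, 0.564 and 0.614 within mice. Since each pair had neighbouring places on the chip, mouse and place cannot be told apart.

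The members, the 7 pathway lists and the 12 cell type lists were chosen with earlier results of these data known. Named were all members, every measured gene of the signalling list and of the other GTPases, up to 4 genes with the largest change past the threshold in each other pathway list, and the 5 nearest profiles. The cell type lists are given by list, with Ptprc named. The code of the fit was run on simulated data with the same noise for every probe and no difference between mice. That run could check neither the pairing nor the handling of a gene's own spread. Alternatives were no background correction, an offset of 50, the authors' processed values, median scaling, cyclic loess, other detection filters, another variance prior, no mouse term, mouse as a random block, each mouse left out, and the mean of a gene's probes.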

Additional observations from a re-analysis of the deposited data

How the results depend on the processing

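The mean difference of every kept member stayed below 0 in all 15 alternatives (8 of 8 members), a direction that their selection had used. With no filter on dim probes Iigp1 was included, though its probes were detected on 0 of 6 arrays. Its differences of -0.05 and 0.03 by probe are not a measured fall. The members' median, -1.06, ranged from -1.30 to -0.76 when each mouse was left out and was -0.81 without background correction, as in the authors' processed values. Of 120 member values 7 moved by more than the spread between mice, and 0 reversed. Members lower and past the threshold numbered 6, and 2 to 7 when each mouse was left out, 0 with no replicate block and 2 with no filter. They numbered 4 with no background correction, with the processed values and with the mean of a gene's probes. Probes changed numbered 1399, and 412 to 1927 when each mouse was left out and 183 with no replicate block. They numbered 947 with no filter and 1492 with no background correction. Pathway genes lower numbered 24, and 7 to 28 when each mouse was left out, 0 with no replicate block and 10 with no filter. They numbered 42 with median scaling, where all probes had 1 common variance. The pairing is that of the same animals, so calls lost without the replicate block are not weaker effects. Of 521 values of other named genes, 92 lost a call at the threshold, 13 gained one and 3 reversed. Leaving out each mouse gave Tgtp1 -0.58 to 0.047, reversed without replicate 1, against -0.34 with all mice. It gave Socs1 -0.038 to 0.31, reversed without replicates 2 and 3, against 0.08 with all mice. The cause was not tested. Of 285 counts in lists, 54 moved by over 1.5 times. With a lowest scanner signal of 79.2, the offset and background step set the size of a dim probe's difference.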
